A study of Mus musculus with 8 samples.

Results

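The miR-181 family was followed through small RNA libraries of mouse splenic CD8+ T cells as 6 mature miRNAs, out of 1978 mature names in the table. They are the guide strands mmu-miR-181a-5p, mmu-miR-181b-5p, mmu-miR-181c-5p and mmu-miR-181d-5p, and the passenger strands of the miR-181a hairpins, mmu-miR-181a-1-3p and, from the second hairpin, mmu-miR-181a-2-3p (the species prefix is left out from here on). Members were taken by name, with rows of the same name summed. All 6 passed the filter on low counts, which 382 mature names passed. The cells came from spleens of WT mice and of mice labelled mCre, and were sorted on CD8, CD4, CD44 and CD122 into the subsets TN and MP. That gave 4 groups, WT TN, mCre TN, WT MP and mCre MP, of 2 libraries each. The labels spell out neither TN, MP nor mCre, and give no age or strain for a sample, while the protocol speaks of adult and neonatal spleens alike; in this field TN usually means true naive cells, and MP memory-phenotype cells, which carry memory markers. By its title the series concerns miR-29 and the recombinase Cre; which cells express Cre and which sequence it removes are not said. Whether replicate libraries came from different animals is not stated, and the p-values describe only how these libraries scatter, which could be technical.

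A miRNA hairpin is cut into a duplex of which 1 strand, the guide, is kept in Argonaute and pairs with mRNAs mainly through its seed, bases 2 to 8. The other strand, the passenger, is mostly degraded, and so reports on the hairpin it came from. In developing T cells miR-181a is known for lowering the levels of several phosphatases that restrain T cell receptor signalling, and thymocytes carry far more of it than mature T cells. The family is made from 3 pairs of neighbouring hairpins, and those on mouse chromosome 1 are the best known for this role.

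The 4 guides are shown first because they share a seed, in capitals, which no other mature entry of the RefSeq table for GRCm38.p6 (1679 names) carries.
miR-181a-5p: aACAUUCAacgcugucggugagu
miR-181b-5p: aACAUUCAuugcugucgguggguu
miR-181c-5p: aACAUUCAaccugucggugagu
miR-181d-5p: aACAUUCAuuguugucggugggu
Outside the seed miR-181b-5p and miR-181d-5p differ by 1 substitution, C12U, and by length. miR-181a-5p and miR-181b-5p differ at A9U, C10U and A21G (positions from the 5′ end, the first-named miRNA's base first). miR-181c-5p aligned to miR-181a-5p with 22 identical bases and a gap of 1 base.

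The passenger strands matter here because they tell the miR-181a hairpins apart, which the identical guide cannot. They differ at U5C and U16C, the first of which lies in the seed (capitals).
miR-181a-1-3p: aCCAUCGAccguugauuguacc
miR-181a-2-3p: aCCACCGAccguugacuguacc
In the hairpins below, capitals mark the guide and then the passenger.
Mir181a-1: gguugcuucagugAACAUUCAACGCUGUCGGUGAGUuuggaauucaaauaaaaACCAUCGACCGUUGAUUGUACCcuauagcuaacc
Mir181a-2: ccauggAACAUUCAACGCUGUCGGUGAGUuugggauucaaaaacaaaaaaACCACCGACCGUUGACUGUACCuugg
Mir181a-1 (GRCm38, chr1:137966455-137966541, plus strand) stands 97 bases before Mir181b-1, in an intron of the noncoding gene Gm4258 and an exon of the lincRNA A430106G13Rik. Mir181a-2 (chr2:38852735-38852810, plus strand) stands 1019 bases before Mir181b-2, opposite an intron of Nr6a1. Mir181c and Mir181d (chr8:84178873-84178961 and chr8:84178716-84178787, minus strand) lie 85 bases apart in an intron of Nanos3 in the GENCODE annotation.

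The libraries held 1936600 to 5230975 counts, and the lymphocyte miRNAs miR-150-5p, miR-142a-3p, miR-142a-5p and miR-342-3p together took 4.02% to 16.5% of them. Myeloid markers (miR-223, both arms) summed to 1.40 to 13.7 CPM, without library scaling. In miR-29a-3p the TN libraries labelled replicate 2 ran opposite to replicate 1 by genotype label. The library labelled mCre held 1.52% of counts and that labelled WT 0.0735%, against 0.162% and 0.340% in replicate 1. The MP libraries held 0.0734% and 0.126% in mCre, and 0.349% and 1.09% in WT. The library labelled mCre TN replicate 2 also held 139.6 CPM of miR-128-3p, a miRNA of early lymphoid cells, against 2658 to 7779 CPM in the other 7 libraries. The drop was not particular to that miRNA. With library scaling, miR-342-5p was at 83.9 CPM there against 1042 to 4227, and miR-340-3p at 1.73 against 57.0 to 118.9.

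All 6 miR-181 members had a log2 change below 0 from TN to MP cells. Of the 6 members 3 fell past the threshold (an edgeR adjusted p under 0.05) over both genotypes: miR-181a-5p and its passengers miR-181a-1-3p and, with the widest separation, miR-181a-2-3p. miR-181b-5p was lower in every MP library than in any TN library without passing, and miR-181c-5p and miR-181d-5p overlapped between the subsets. The guides together took 0.405% to 1.84% of all miRNA counts in the TN libraries and 0.0751% to 0.231% in the MP libraries, with no overlap. In bulk cells, fewer cells with the miRNA and less of it per cell cannot be told apart.

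miR-181a-5p, the main guide, made up 0.578% and 0.322% of the counts in WT TN, 0.527% and 1.36% in mCre TN, 0.0712% and 0.115% in WT MP, and 0.0384% and 0.0725% in mCre MP. The lowest TN share had a 95% Wilson interval of 0.314% to 0.330% and the highest MP share 0.112% to 0.118%, so counting error did not bridge the subsets. Among all miRNAs of a library it ranked between 15 and 28 in TN and between 60 and 77 in MP. In TMM-scaled CPM, the count as a share of the scaled library total, it was 4680 and 3517 in WT TN, 4578 and 13770 in mCre TN, 634.0 and 1230 in WT MP, and 435.5 and 864.2 in mCre MP. The MP libraries were all below the TN libraries, and the library labelled mCre TN replicate 2 stood high above the other 3 of its subset. The change from TN (6636 ± 4785 CPM, SD, n = 4) to MP (790.8 ± 340.9, SD, n = 4) was -2.98 ± 0.61 (log2 change with SE, edgeR quasi-likelihood adjusted p = 0.0423).

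**Figure D1:**
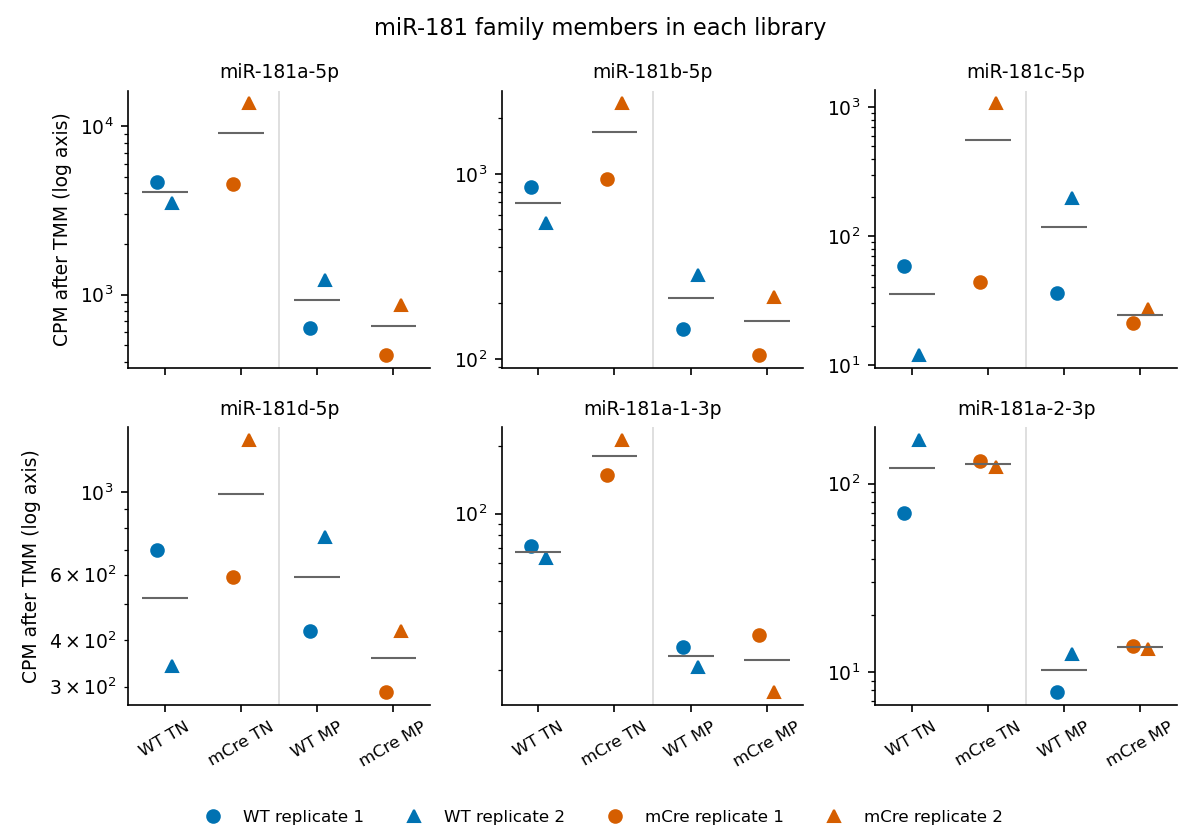
Level of each miR-181 member in the 8 libraries, in CPM after TMM scaling on log axes with a range of their own per panel; points are libraries, grey bars the mean of 2 libraries. For miR-181a-5p, miR-181b-5p and both miR-181a passenger strands every MP library lies below every TN library, while miR-181c-5p and miR-181d-5p overlap.

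The passenger of the chromosome 2 hairpin showed the widest separation. miR-181a-2-3p was at 69.9 and 171.3 CPM in WT TN, 131.8 and 122.7 in mCre TN, 7.84 and 12.5 in WT MP, and 13.8 and 13.2 in mCre MP. The lowest TN library was thus well above the highest MP library, in both genotypes. These levels rest on 261 to 793 counts per TN library and 26 to 46 per MP library. It fell by 3.40 ± 0.43 (log2 change with SE, edgeR adjusted p = 0.011), the smallest p of the 382 miRNAs tested.

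miR-181a-1-3p, the passenger of the chromosome 1 hairpin, was at 71.5 and 63.7 CPM in WT TN, 148.9 and 214.3 in mCre TN, 25.4 and 20.7 in WT MP, and 28.6 and 16 in mCre MP. Again no MP library reached a TN library, and the mCre TN libraries were above the WT TN libraries. It fell by 2.29 ± 0.46 (SE, log2 scale, edgeR adjusted p = 0.0409).

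miR-181b-5p, the guide of the hairpins beside both miR-181a copies, was at 844.2 and 544.3 CPM in WT TN, 936.7 and 2409 in mCre TN, 145.7 and 282.7 in WT MP, and 104.4 and 216.6 in mCre MP. No MP library reached a TN library. Over the libraries its level went with that of miR-181a-5p, with a Pearson correlation of log2 CPM of 0.995 (n = 8, given as a description). Its change of -2.54 ± 0.61 (SE, log2 scale) did not pass (edgeR adjusted p = 0.0769).

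miR-181d-5p, from the chromosome 8 pair, was at 698.0 and 341.4 CPM in WT TN, 589.9 and 1384 in mCre TN, 423.5 and 756.5 in WT MP, and 290.3 and 423.9 in mCre MP. The subsets overlapped, and WT MP replicate 2 was above 3 of the 4 TN libraries. Its change was -0.64 ± 0.56 (SE, log2 scale, edgeR adjusted p = 0.740), with -0.35 without the library labelled mCre TN replicate 2, -1.05 without WT TN replicate 2 and -1.01 without WT MP replicate 2.

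miR-181c-5p, its neighbour, was at 58.9 and 11.8 CPM in WT TN, 43.7 and 1079 in mCre TN, 35.9 and 197.9 in WT MP, and 21.2 and 27.3 in mCre MP. Its mean in TN was set by the library labelled mCre TN replicate 2, with 3111 counts against 21 to 263 in the other TN libraries. The change was -1.40 ± 2.16 (SE, log2 scale, edgeR adjusted p = 0.835), 0.45 without that library, and -0.15 without both TN replicate 2 libraries. It was also above 0 without mCre MP replicate 1 (0.068) or mCre MP replicate 2 (0.079). Leaving out any other single library gave -3.05 to -1.30. miR-181c-5p and miR-181d-5p followed each other (Pearson correlation 0.943 over 8 libraries) more closely than either followed miR-181a-5p (0.553 and 0.735), values given as description since all share library and depth.

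Read against the whole table, 3 of 6 members were called lower where 4 of the 382 miRNAs (1.05%) were, these 3 included. In either direction 2.36% were called. The 3 members are the guide and passengers of the miR-181a hairpins, and so are not independent of each other. An unadjusted p under 0.05 was reached by 4 of 6 members and 13.1% of all miRNAs. All MP libraries lay below all TN libraries for 4 of 6 members, against 4.45% of all miRNAs. The median log2 change was -2.41 over the 6 members and -0.04 over all miRNAs tested. The calls of miR-181a-5p and miR-181a-1-3p were lost on leaving out any library except the one labelled WT TN replicate 2, with edgeR adjusted p from 0.0598 to 0.197 and from 0.0665 to 0.197. That of miR-181a-2-3p was lost without WT MP replicate 1 (edgeR adjusted p = 0.0793), WT MP replicate 2 (0.0657) or mCre MP replicate 2 (0.0684), while all 3 stayed lower throughout. Without both TN replicate 2 libraries 4 of the 6 members passed as lower, miR-181b-5p among them (edgeR adjusted p = 0.00252), where 7.85% of the 433 miRNAs then tested did.

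**Figure D2:**
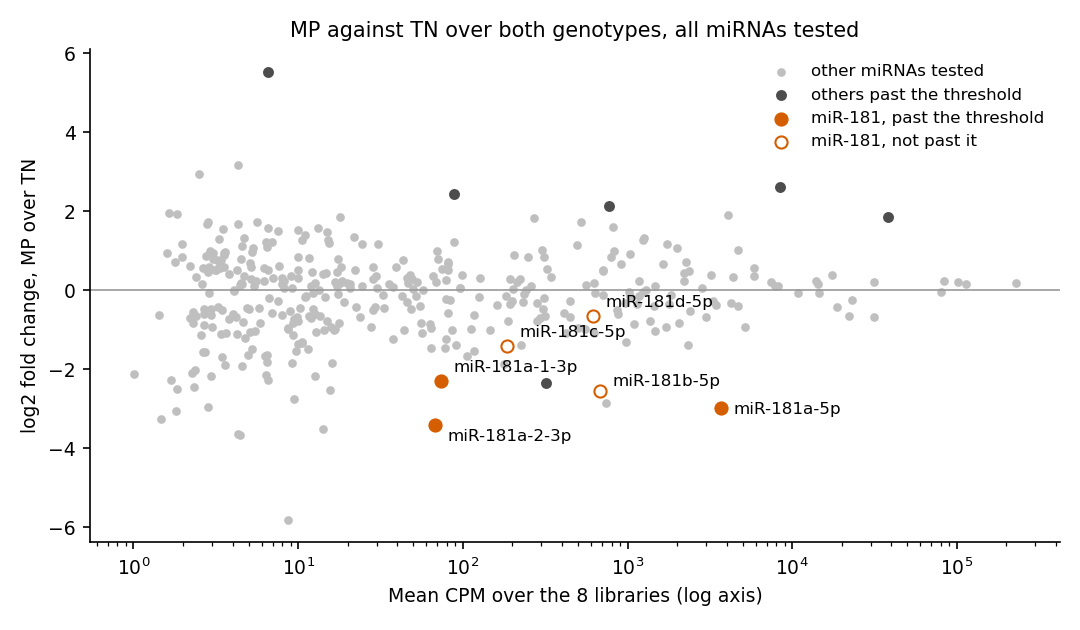
Log2 fold change of MP over TN (edgeR, both genotypes) against mean CPM (log axis) for the 382 miRNAs tested; orange points are miR-181 members, filled where the adjusted p was under 0.05. The miR-181a strands lie between -3.40 and -2.29, with miR-181b-5p at -2.54 and miR-181d-5p nearest to 0 at -0.64.

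The subset difference was then taken within each genotype. In WT cells 4 of 6 members were lower in MP without overlap, against 13.4% of all miRNAs, and in mCre cells 6 of 6, against 35.6%. The log2 changes in WT were -2.14 ± 0.70 for miR-181a-5p, -1.70 ± 0.71 for miR-181b-5p, -1.55 ± 0.52 for miR-181a-1-3p and -3.56 ± 0.63 for miR-181a-2-3p (SE). In mCre they were -3.82 ± 0.76, -3.38 ± 0.75, -3.03 ± 0.55 and -3.23 ± 0.62. None passed in either genotype: edgeR called 0% of 382 in both, and the smallest edgeR adjusted p of a member was 0.0618 in WT and 0.0829 in mCre. An unadjusted p under 0.05 was found for 8.12% of all miRNAs and 4 of 6 members in WT, and for 21.5% and 5 of 6 in mCre. DESeq2, the other tool run, called 2 members lower in WT and 5 in mCre, against 1.14% and 8.48% of the miRNAs to which it gave an adjusted p. Without both TN replicate 2 libraries edgeR called 2 members lower in WT and 4 in mCre, against 2.31% and 4.85% of all miRNAs, with the lone TN library of each genotype assumed to vary like the other groups.

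Of the chromosome 8 guides, miR-181c-5p had a log2 change of 1.71 ± 1.40 in WT and -4.53 ± 1.57 in mCre (SE). The mCre value was -0.98 without the library labelled mCre TN replicate 2, and the WT value was 0.86 without WT TN replicate 2 and -0.042 without WT MP replicate 2. miR-181d-5p had 0.18 ± 0.65 and -1.47 ± 0.67 (SE), and its WT value was below 0 with RLE factors (-0.0032) or miR-181-free TMM (-0.095). Its mCre value was -0.85 without the library labelled mCre TN replicate 2. The difference of the subset effect between genotypes was -6.24 ± 2.09 for miR-181c-5p (edgeR adjusted p = 0.30) and -1.68 ± 0.96 for miR-181a-5p (edgeR adjusted p = 0.433). Without the library labelled mCre TN replicate 2 these were -2.52 and -0.60, and without both TN replicate 2 libraries -1.82 and -0.47. For miR-181a-5p the difference was also nearer to 0 without WT MP replicate 2 (-1.04) or mCre MP replicate 1 (-0.99). edgeR called 0% of the 382 miRNAs in that test. Without adjustment 14.1% had an edgeR p under 0.05. DESeq2 called 16 of the 322 miRNAs to which it gave an adjusted p, with 1 member among the 3.42% called lower.

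**Figure D3:**
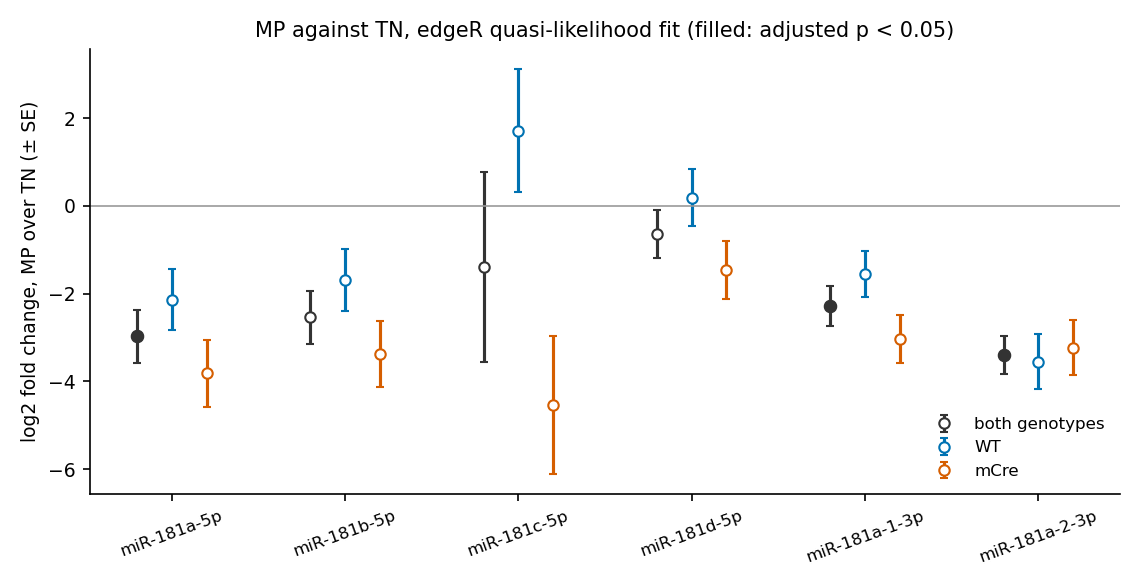
Log2 fold change of MP over TN with its SE for each member, over both genotypes (black), in WT (blue) and in mCre (orange); filled points had an edgeR adjusted p under 0.05. Both passenger strands, miR-181a-5p and miR-181b-5p lie below 0 in all 3 comparisons, while miR-181c-5p is at 1.71 in WT and at -4.53 in mCre, the latter -0.98 without the library labelled mCre TN replicate 2.

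As a description, the shares of miR-181a-5p and miR-181d-5p among the guides separated the TN from the MP libraries. The ratios of guides tested below did not pass after adjustment. In TN, miR-181a-5p held 73.9% to 79.7% of the 4 guides' counts and miR-181d-5p 7.42% to 11.1%. In MP, miR-181a-5p held 49.8% to 56.4% and miR-181d-5p 27.7% to 34.2%. The ranges of both did not overlap, while those of miR-181b-5p, 12.3% to 15.2% in TN and 11.5% to 14.1% in MP, overlapped. Such shares are free of library scaling, but ligation-based kits recover sequences unequally, so a share is not a molar fraction and only its change between libraries was compared.

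**Figure D4:**
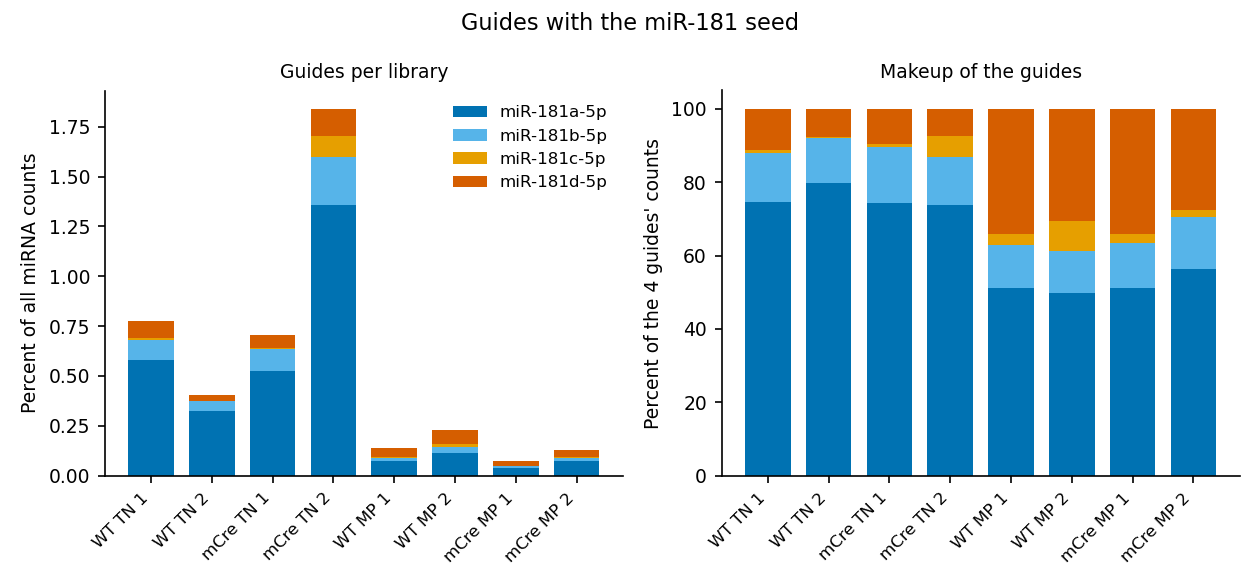
Left, the 4 guides as percent of all miRNA counts in each library; right, each guide as percent of the 4 guides' counts. The stacks are lower in the 4 MP libraries, and miR-181d-5p fills 27.7% to 34.2% of them there against 7.42% to 11.1% in TN.

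The chromosome 8 guides were accordingly set against the guides of the other loci within each library. The log2 ratio of miR-181c-5p and miR-181d-5p to miR-181a-5p and miR-181b-5p was -2.87 and -3.52 in WT TN, -3.12 and -2.72 in mCre TN, -0.76 and -0.66 in WT MP, and -0.79 and -1.26 in mCre MP. All MP libraries were above all TN libraries, by 2.19 on average (4.55-fold), and by 2.48 within WT and 1.89 within mCre. The exact two-sided permutation p was 0.0286, the smallest that 4 libraries against 4 allow when genotype is ignored. After Benjamini-Hochberg adjustment over the 4 ratios tested it was 0.0571. Permuting within genotype, where 0.0556 is the smallest p, gave an adjusted 0.111. Leaving out both TN replicate 2 libraries gave 2.12.

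Within the guides of the paired loci, the log2 ratio of miR-181b-5p to miR-181a-5p ran from -2.69 to -2.29 in TN and from -2.12 to -1.995 in MP. MP was higher by 0.42 (1.34-fold) without overlap, with an exact permutation p of 0.0286 and an adjusted value of 0.0571. Permuted within genotype, the adjusted value was 0.111. miR-181b-5p differs from miR-181d-5p by C12U, and deposited values of both ended in fractions such as 1551.83 and 2607.33, as when a read is divided between several rows. The part of shared miR-181d reads in this difference was not tested.

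**Figure D5:**
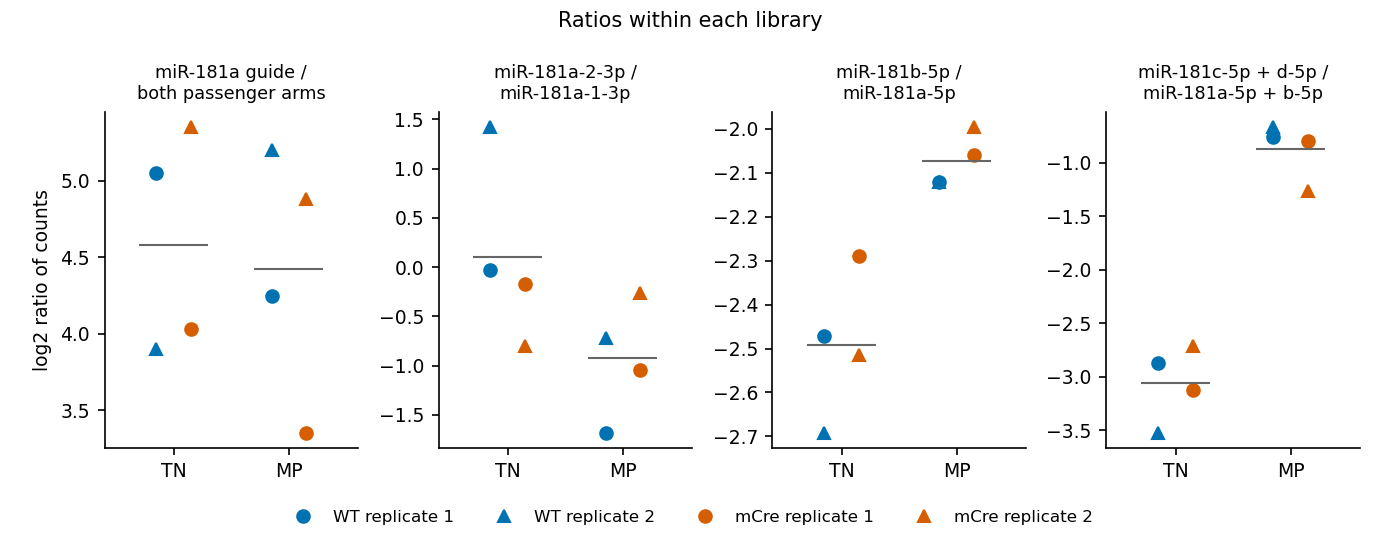
Log2 ratios of counts within each library for 4 pairs of miR-181 forms, TN against MP; points are libraries and grey bars the mean of 4. The guide to passenger ratio of miR-181a overlaps in part, from 3.902 to 5.35 in TN and from 3.35 to 5.20 in MP, while both ratios at the right separate the subsets, by 0.42 and 2.19.

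Guide and passenger of miR-181a were compared in the same way, to see whether the strands moved together. For each passenger count there were 33.1 and 14.95 guide counts in WT TN, 16.3 and 40.8 in mCre TN, 19 and 36.8 in WT MP, and 10.2 and 29.4 in mCre MP. The guide thus held 91.1% to 97.6% of the miR-181a counts in all libraries, with 93.7% to 97.6% in TN and 91.1% to 97.4% in MP, which overlapped in part. The log2 ratio averaged 4.58 ± 0.73 over the TN libraries and 4.42 ± 0.81 over the MP libraries (SD, n = 4 for both), a difference of -0.16 (exact permutation p = 0.800). Leaving out single libraries moved the difference between -0.42 and 0.19, so its direction was not settled.

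The passengers were also set against each other, as a reading of the 2 hairpins. miR-181a-2-3p held 49.4% and 72.9% of both passengers' counts in WT TN, 47.0% and 36.4% in mCre TN, 23.6% and 37.7% in WT MP, and 32.5% and 45.3% in mCre MP. The ranges overlapped, with the library labelled WT TN replicate 2 highest. The log2 ratio of miR-181a-2-3p to miR-181a-1-3p was lower in MP by 1.03 on average (exact permutation p = 0.0857, adjusted 0.114), as the mean of -1.89 in WT and -0.16 in mCre. Without the library labelled WT TN replicate 2 the difference was -0.59. The guide itself gave no reading of the loci: its rows for the hairpins held values that differed by at most 3 counts in any library.

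Genotype was compared within each subset. In TN cells 6 of 6 members had a log2 difference above 0 in mCre against WT (5 of 6 under RLE or miR-181-free TMM scaling, where miR-181a-2-3p turned from 0.08 to -0.08 or -0.10), with a median log2 difference of 1.22 against 0.02 over all miRNAs. miR-181a-1-3p was at 181.6 ± 46.2 CPM in mCre TN and 67.6 ± 5.53 in WT TN (SD, n = 2 each), a difference of 1.42 ± 0.51 (SE, log2 scale, edgeR adjusted p = 0.957). Without overlap, 2 of 6 members were higher, against 15.7% of all miRNAs. edgeR called 0% of 382 in this comparison, where 3.14% had an unadjusted p under 0.05, as did 2 of 6 members; DESeq2 called 0. Without both TN replicate 2 libraries, the differences were -0.04 for miR-181a-5p, 0.14 for miR-181b-5p and -0.44 for miR-181c-5p, from 1.16, 1.27 and 3.97 with them. That of miR-181a-1-3p was then 1.05, from 1.42.

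In MP cells 5 of 6 members had a log2 difference below 0 in mCre (4 of 6 under those scalings, where miR-181a-1-3p turned from -0.05 to 0.01 or 0.14), with a median of -0.47 against -0.23 over all miRNAs. miR-181c-5p, at 24.2 ± 4.30 CPM in mCre MP and 116.9 ± 114.5 in WT MP (SD, n = 2 each), was 1 of 2 members without overlap, on the lower side, where 37.4% of all miRNAs lay. The other, miR-181a-2-3p, was higher, at 13.8 and 13.2 CPM in mCre MP against 7.84 and 12.5 in WT MP, as 27.2% of all miRNAs were without overlap. The difference of miR-181c-5p was -2.27 ± 1.43 (SE, log2 scale, edgeR adjusted p = 0.468), and -0.58 without WT MP replicate 2. That of miR-181a-2-3p was 0.41 ± 0.59 (SE, log2 scale, edgeR adjusted p = 0.754). edgeR called 0% of 382, and DESeq2 0. An unadjusted p under 0.05 was found for 10.7% of all miRNAs and 0 members.

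Other miRNAs known from T cell development, receptor signalling, activation and quiescence were read as a list chosen with earlier results of these data known. Of 30 listed, 28 were tested, and for MP against TN over both genotypes 16 were lower and 12 higher, with a median of -0.19 against -0.04 over all miRNAs. Of the 28 tested, 0 passed as lower and 2 as higher, against 1.05% and 1.31% of all miRNAs. Those higher were miR-146a-5p, an inhibitor of NF-kB signalling (2.61 ± 0.37, SE, log2 scale, edgeR adjusted p = 0.0137), and miR-21a-5p, a miRNA of activated T cells (1.87 ± 0.36, edgeR adjusted p = 0.0392). The early lymphoid miR-128-3p had a mean of 4726 ± 3314 CPM over the TN and 3748 ± 895.1 over the MP libraries (SD, n = 4 each) and did not pass (edgeR adjusted p = 0.899).

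The miRNAs outside the family whose log2 CPM followed miR-181a-5p most closely over the 8 libraries were miR-450b-3p (Pearson correlation 0.966), miR-351-5p (0.960), miR-1198-3p (0.941) and miR-450b-5p (0.910). All come from the X chromosome, and Mir450b and Mir351 lie near each other, with miR-450b-3p at chrX:53048008-53048029 and miR-351-5p at chrX:53053315-53053338 (minus strand). They were scarce: miR-351-5p held 9.58 to 25.0 CPM in TN and 1.08 to 3.27 in MP, and miR-450b-3p 2.25 to 14.6 and 0 to 0.818. Their MP libraries were all below their TN libraries, as for 4.45% of all miRNAs. They were picked for following miR-181a-5p, which separates the subsets, so this is no further result. None passed for MP against TN (edgeR adjusted p from 0.0602 to 0.316). At such counts, and with depth and library shared, these likenesses are a description of the 8 libraries.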

How the data were processed

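Small RNA from 8 libraries of sorted splenic CD8+ T cells, made with a ligation-based small RNA kit per the labels' protocols, was read from 1 table of expected counts deposited by the authors, with 2128 rows per mature miRNA and hairpin. The build was mm10 per the submitters' processing notes; for the aligner, counter and annotation the sources used here give no name. Names in 2 rows ended in whole numbers and in 0.5 about equally often (29.9% and 30.1% of values, within 0.011), as when a read is divided between rows, so rows of a name were summed and rounded. Reads shared by near-identical members make values of such members uncertain to that extent. Deposited values of miR-181a-5p, miR-181b-5p and miR-181d-5p held fractions (3120.75, 474.25 and 606.5 in WT TN replicate 2). Those of miR-181c-5p were whole numbers.

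Low counts were filtered with filterByExpr (minimum count 10, minimum total 15) and libraries scaled by TMM. The quasi-likelihood F test (robust dispersions) of edgeR 4.0.16 in R 4.3.3 gave MP against TN over both genotypes (subset and genotype terms, 5 residual degrees of freedom) and the other contrasts from a fit of the 4 groups (4 degrees). p-values were adjusted by Benjamini-Hochberg over the 382 miRNAs, with calls under 0.05. SE is the absolute log2 change over the square root of F. Ratios used counts with 0.5 added and exact two-sided permutation of libraries. Log2 CPM for correlations used a prior count of 2. Intervals are 95% Wilson intervals and cover counting error only. The edgeR fits were tested on simulated data. DESeq2 1.42.0, other scalings, no filter, a replicate block and left-out libraries were the alternatives. Members and lists were chosen with earlier results of these data known. The named miRNAs were the 6 members, the other arms, the listed T cell miRNAs past the threshold and the 4 outside the family most like miR-181a-5p. After their values were seen, miR-29a-3p, miR-128-3p, miR-342-5p and miR-340-3p were added. Marker lists other than the lymphocyte and myeloid ones gave summed levels, without TMM, of 43.6 to 138.3 CPM (erythroid and platelet), 22.2 to 109.2 (endothelial and stromal), 709.8 to 3039 (epithelial) and 14.0 to 38.8 (liver, muscle and neural). Sequences and positions are RefSeq's for GRCm38.p6; hosts and the Mir181c position are from GENCODE M21.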

Additional observations from a re-analysis of the deposited data

Results flagged for a closer look

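In 3 of 20 groups of 4 libraries examined, a single library lay far from the other 3, in CPM without logs. A chance rate of about 1 in 20 would need independent groups of normally distributed values. Members followed each other over the libraries and the groups mix both genotypes, so the 3 are a description and were not set against chance. In the library labelled mCre TN replicate 2, miR-181a-5p was at 13770 CPM against 3517 to 4680 in the other TN libraries. In the same library miR-181c-5p was at 1079 CPM against 11.8 to 58.9. WT MP replicate 2 held 197.9 CPM of miR-181c-5p against 21.2 to 35.9 in the other MP libraries. These 2 libraries also held the most miR-29a-3p, 1.52% and 1.09% of counts. The part of that in the miR-181 values was not tested.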

How the results depend on the processing

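For MP against TN over both genotypes edgeR called 3 members and 9 miRNAs. Without the filter on low counts it called 4 members and 19 of 877 miRNAs, and DESeq2 called 4 members and 28 of 352. RLE, total count and miR-181-free TMM scaling gave 3 to 4 members and 9 to 11 of 382 miRNAs. In each comparison below, 877 miRNAs were tested without the filter and 426 to 444 with a single library left out. DESeq2 gave an adjusted p to 352 miRNAs in WT and 330 in mCre. These scalings moved the median log2 change of all miRNAs from -0.04 to -0.15 (RLE and miR-181-free TMM) and -0.23 (total count). With a replicate block edgeR called 1 member and 2 miRNAs. The numbers were not taken as a pairing because nothing in the labels says that they mark a shared animal or day. Correlations of the deviations of same-numbered libraries ran from -0.320 to 0.407 over 6 pairs of groups, without a common sign, and do not settle this. Leaving out single libraries gave 0 to 4 members and 0 to 41 miRNAs, and a range of -3.05 to 0.45 for the log2 change of miR-181c-5p; the other 5 members stayed below 0. Dropping both TN replicate 2 libraries, an alternative chosen after seeing the data, 49 miRNAs were called.

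In WT, 0 members and 0 miRNAs were called, against 1 and 6 without the filter, 2 and 12 by DESeq2, 2 and 14 without both TN replicate 2 libraries, and 0 to 1 and 0 to 6 without single libraries. There miR-181d-5p moved from 0.18 to -0.0032 with RLE factors, -0.0033 by DESeq2, -0.095 with miR-181-free TMM and -0.37 without both TN replicate 2 libraries, and from -0.36 to 0.81 without single libraries, which moved miR-181c-5p from -0.042 to 3.31. In mCre, 0 and 0 became 5 and 24 without the filter, 5 and 44 by DESeq2, 4 and 30 without both TN replicate 2 libraries, and 0 to 4 and 0 to 56 without single libraries. For mCre against WT, edgeR without the filter called 1 miRNA in TN, a member (1 of 6). Leaving out both TN replicate 2 libraries gave 63 calls in MP, 1 of them a member, and in TN turned miR-181a-5p to -0.043 and miR-181c-5p to -0.44. For the difference of the subset effects, 1 member and 10 miRNAs were called without the filter, 1 and 16 by DESeq2, and 0 to 68 miRNAs without single libraries. The cause of these shifts was not tested.

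The ratio of the miR-181a guide to its passengers changed by -0.42 to 0.19 without single libraries. The other 3 ratios kept their direction in every alternative run, and no ratio passed after adjustment; flips of 4 pairs under the replicate block cannot go below 0.125. Depth limits the passengers in MP, with 26 to 94 counts per library.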

Other observations

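The remaining arms of the family were sparse. miR-181b-1-3p had 53, 2, 33 and 32 counts in the TN libraries and 0, 8, 0 and 1 in the MP libraries (WT then mCre, replicates 1 and 2), with a log2 change of -3.63 ± 1.27 (SE, edgeR adjusted p = 0.268). miR-181b-2-3p, under the filter on low counts, had 7, 0, 1 and 2 counts in TN and 0 in all 4 MP libraries, and a count of 0 allows up to 3. The arms from chromosome 8 overlapped between the subsets, with 4 to 92 counts in TN and 0 to 60 in MP for miR-181c-3p, which shares the seed of miR-181a-1-3p, and 3 to 23 and 4 to 13 for miR-181d-3p. Their changes were -0.96 ± 1.18 and 0.46 ± 0.75 (SE, log2 scale, edgeR adjusted p = 0.801 and 0.835).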
